A study of Mus musculus with 28 samples.

Results

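Cycling cells are cells that carry the transcripts of DNA replication and division. They were taken here as single-cell barcodes with at least 3 UMIs (unique molecular identifiers, 1 per captured transcript) summed over *Mki67*, *Top2a*, *Birc5*, *Ube2c*, and *Prc1*, and with at least 2 of these 5 genes detected. Barcodes with 200 to 6000 genes and at most 10% of UMIs from mitochondrial genes were considered, which were 16893 of the 26438 barcodes. The rule found 424 cycling cells, 2.51% of the barcodes considered: 42 from contralateral veins, 211 from early arteriovenous fistulas (AVFs), and 171 from late AVFs. These cells were chosen by the UMIs of the 5 genes, so the levels of those genes in them are a description.

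All mice were C57BL/6 of both sexes that had a 5/6 nephrectomy before an AVF was made, in which the jugular vein was cut and its end sewn onto the wall of the carotid artery; the contralateral vein is the jugular vein of the other side. Single-cell RNA sequencing was done on 1 library of contralateral veins, 1 of early AVFs, and 1 of late AVFs, each a pool of vessels from male and female mice, and the labels of these libraries give no day. Vessels were digested with enzymes, and red blood cells were lysed, before cells were captured. Bulk RNA sequencing was done on 25 single vessels: 7 contralateral veins and 8 early (day 3), 5 mid (day 10), and 5 late (day 21) AVFs. Median depth was 2751 UMIs per barcode in contralateral veins, 8951 in early AVFs, and 15425 in late AVFs, and 17 barcode sequences occurred in more than 1 library, with 0 of them a cycling cell.

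In the cell cycle, DNA is copied in S phase, and the copies are parted in mitosis after a gap. The enzymes of replication are made around the entry into S phase, while the kinases, spindle motors, and cytokinesis proteins are made later, toward mitosis. In resting vessels most cells are outside the cycle, and after injury or a change in flow, cells of the wall and recruited leukocytes can enter it. *Mki67* encodes a coat protein of mitotic chromosomes, *Top2a* the topoisomerase that untangles copied DNA, *Birc5* survivin, a subunit of the chromosomal passenger complex, *Ube2c* the ubiquitin-conjugating enzyme that works with the anaphase-promoting complex, and *Prc1* a protein that bundles microtubules between the separating chromosomes.

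The promoters of late cell cycle genes often hold a CHR element, the letters TTTGAA, and CCAAT boxes, to which the DREAM and MuvB complexes and NF-Y bind. The 200 bases before the start of each of the 5 genes are printed because their shared letters are a feature that the cell rule did not use. Sequences are from RefSeq on GRCm38.p6, 5′ to 3′ on the strand of the gene, and capitals mark TTTGAA or its reverse complement TTCAAA and CCAAT or its reverse complement ATTGG.
Mki67, chr7:135716380-135716579, minus strand: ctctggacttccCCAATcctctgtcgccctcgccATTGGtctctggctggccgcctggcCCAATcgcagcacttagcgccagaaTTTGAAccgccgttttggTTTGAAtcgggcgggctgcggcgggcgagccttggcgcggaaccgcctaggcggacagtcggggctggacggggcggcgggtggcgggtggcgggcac
Top2a, chr11:99024190-99024389, minus strand: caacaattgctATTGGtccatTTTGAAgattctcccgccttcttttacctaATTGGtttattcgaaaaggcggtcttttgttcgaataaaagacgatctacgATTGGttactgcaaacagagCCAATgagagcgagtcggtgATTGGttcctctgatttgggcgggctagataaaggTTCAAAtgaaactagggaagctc
Birc5, chr11:117849037-117849236, plus strand: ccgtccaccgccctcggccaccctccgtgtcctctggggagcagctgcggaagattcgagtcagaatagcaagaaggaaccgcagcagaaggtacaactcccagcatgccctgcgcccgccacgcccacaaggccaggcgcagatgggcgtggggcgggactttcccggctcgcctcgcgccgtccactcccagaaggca
Ube2c, chr2:164769729-164769928, plus strand: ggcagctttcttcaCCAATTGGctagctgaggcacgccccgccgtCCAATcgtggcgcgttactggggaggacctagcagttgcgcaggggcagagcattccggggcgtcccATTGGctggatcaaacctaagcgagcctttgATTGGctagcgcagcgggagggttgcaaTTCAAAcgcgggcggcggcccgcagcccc
Prc1, chr7:80294276-80294475, plus strand: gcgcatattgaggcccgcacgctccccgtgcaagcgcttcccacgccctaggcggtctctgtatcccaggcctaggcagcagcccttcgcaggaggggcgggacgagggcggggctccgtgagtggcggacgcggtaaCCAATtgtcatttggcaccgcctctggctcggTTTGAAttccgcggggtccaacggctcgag

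In windows of 250 bases before to 50 after the start, on both strands, 4 of the 5 genes held TTTGAA and 4 of the 5 held CCAAT; *Birc5* held neither. TTTGAA began 116 and 98 bases before the start of *Mki67*, and its reverse complement began 23 bases before the start of *Top2a* and 29 before that of *Ube2c*. *Prc1* has 2 listed starts, and the window of its second start is printed. Of the 85 genes of the cell cycle lists used below, the 5 rule genes included, 70 matched a promoter entry, and 42 of the 70 (60%) held TTTGAA, against 20.2% of 27025 genes with an entry and 17.9% of 32851 windows of the same length. CCAAT was held by 48 of the 70 (68.6%), against 41.1% of genes and 37.4% of windows, and both by 34 of 70 (48.6%) against 8.97% of genes. These are matches of letters and not measured sites.

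Cycling cells were rarest in contralateral veins and most frequent in early AVFs. The share was 0.665% of 6319 barcodes in contralateral veins (95% exact binomial interval 0.479 to 0.897%), 4.44% of 4753 in early AVFs (3.87 to 5.06%), and 2.94% of 5821 in late AVFs (2.52 to 3.40%). The intervals cover counting error only, and with 1 library per condition no test between conditions was possible. Depth moved with these shares: the contralateral vein library was the shallowest. With every barcode thinned to 2000 UMIs and shallower ones left out (2451, 802, and 652 barcodes), the shares were 0.62, 1.52, and 1.06%, and at 10000 UMIs, which left out 5555, 2519, and 2097 barcodes, they were 1.96, 4.61, and 2.77%. The order of the 3 libraries was the same at both depths, and at 10000 UMIs the interval of contralateral veins (1.10 to 3.22%) overlapped that of late AVFs (2.26 to 3.34%).

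Cycling cells were deeper than the other barcodes of their library. The median was 7808.5 UMIs against 2736 in contralateral veins, 21059 against 8425.5 in early AVFs, and 23166 against 15186.5 in late AVFs, and the median number of genes was 2584 against 980, 4358 against 2301, and 4310 against 3309. A rule on UMI counts favors deep barcodes, so more RNA per cycling cell and easier detection in deep barcodes cannot be told apart here.

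*Mki67* was detected in 364 of the 424 cycling cells, *Top2a* in 326, *Birc5* in 269, *Ube2c* in 259, and *Prc1* in 237, and all 5 genes in 139. The cycling cells held between 70.1% (*Mki67*) and 85.8% (*Birc5*) of all UMIs of a rule gene over the 3 libraries. *Ube2c* in contralateral veins was the exception, with 29.9% of its UMIs in cycling cells. There 242 UMIs of *Ube2c* lay in 131 of 319 erythroid-like cells, only 4 of which met the rule, and the level of *Ube2c* in the erythroid-like cells outside the rule was 187 UMIs per 1000000 (CPM), against 4.95 CPM for *Mki67*.

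The rule had members near its edge. Exactly 3 UMIs were held by 81 of the 424 (5, 44, and 32 in contralateral veins, early, and late AVFs), and just outside it lay 10, 88, and 62 cells with 2 UMIs of 2 genes and 46, 70, and 83 cells with 3 or more UMIs of a single gene. A second rule of the same form on *Cdk1*, *Ccnb2*, *Cenpf*, *Nusap1*, and *Tpx2*, 5 mitotic genes that the first rule does not read, was met by 227 of the 424 (53.5%). It was met by 1 of 5, 5 of 44, and 0 of 32 of the cells with exactly 3 UMIs. Of the cells just outside it was met by 1, 3, and 3 of those with 2 UMIs and by 0, 1, and 3 of those with a single gene.

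Lineages were read cell by cell from marker lists, and a name below means a cell that is like that lineage by its markers. Mono/macros, the monocytes and macrophages, made up 182 of the 424 cycling cells (42.9%), fibroblasts 73 (17.2%), and T cells 70 (16.5%). There were 23 dendritic cells, 12 endothelial cells, 11 plasma cells, 7 NK cells, 5 erythroid cells, 4 skeletal myogenic cells, 2 Schwann cells, 1 smooth muscle cell, and 1 neutrophil, and 33 could not be assigned. No B cell of 355 and no platelet of 395 met the rule, which allows shares of up to 0.845% and 0.759%, taken here and below as 3 counts of the total.

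The cells were named by these markers, so the presence of the markers in them is a description and not a check. Among the 182 mono/macros, *Lyz2*, the lysozyme of myeloid cells, was detected in 181, *C1qb* in 174, and *Adgre1*, which encodes F4/80, in 164. All 73 fibroblasts had *Col1a1*, 68 had *Dcn*, and 57 had *Pdgfra*. *Cd3g*, of the T cell receptor complex, was detected in 69 of 70 T cells, the junction gene *Cdh5* and *Pecam1* in 12 of 12 endothelial cells, and *Jchain* and *Mzb1* in 11 of 11 plasma cells. Other endothelial markers were less frequent, with *Vwf* in 3 and *Cldn5* in 6 of the 12 cells. Of the 23 dendritic cells, 21 had *Naaa*, 18 *Zbtb46*, and 17 *Ccr7*, the receptor for migration to lymph nodes, while *Siglech*, of plasmacytoid dendritic cells, was at 0. *Flt3* was detected in 14 of them, *Clec9a* in 8, and *Xcr1* in 6. The 4 skeletal myogenic cells held *Cdh15* in 4, and *Pax7*, *Myod1*, and *Myf5* in 3 each, genes of satellite cells and myoblasts. Clusters made without cell cycle genes gave the same class for 305 of the 424, and 70 lay in clusters without a name.

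In contralateral veins the 42 cycling cells were spread over many lineages. They were 10 T cells of 240 (4.17%, interval 2.02 to 7.53%), 8 mono/macros of 556 (1.44%), 6 fibroblasts of 2024 (0.296%, 0.109 to 0.644%), 4 erythroid, 2 dendritic, and 2 Schwann cells, 1 endothelial cell of 546, and 9 unassigned. T cells were thus the largest named class among them, and the shares of fibroblasts and endothelial cells lay below that of T cells without overlap of their intervals.

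In early AVFs mono/macros and fibroblasts led. Cycling mono/macros were 94 of 2053 (4.58%, 3.72 to 5.57%) and 44.5% of the cycling cells, and cycling fibroblasts were 56 of 802 (6.98%, 5.32 to 8.97%) and 26.5%. T cells cycled in 20 of 132 (15.2%, 9.51 to 22.4%) and endothelial cells in 10 of 56 (17.9%, 8.91 to 30.4%). Small classes had high shares with wide intervals: 6 of 16 NK cells, 5 of 7 plasma cells, and 3 of 6 skeletal myogenic cells met the rule. No smooth muscle cell of 113 did, which allows up to 2.65%. Neutrophils, which have left the cell cycle, give the background: 1 of 585 met the rule (0.171%, up to 0.949%), at a median of 3583.5 UMIs in the other neutrophils, shallower than most classes.

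In late AVFs the share among mono/macros was 5.00% (80 of 1601, 3.98 to 6.18%), close to that in early AVFs, and their intervals overlap. Fibroblasts were at 0.473% (11 of 2327, 0.236 to 0.844%), and their interval lies below that of early AVFs and overlaps that of contralateral veins. That overlap depends on the gene limit. Without it, late fibroblasts were at 1.70% (1.26 to 2.26%) and those of contralateral veins at 0.443% (9 of 2032, 0.203 to 0.839%). When also thinned to 10000 UMIs, their intervals overlapped (0.619 to 1.46% and 0.129 to 1.82%). T cells were at 8.40% (40 of 476, 6.07 to 11.3%) and made up 23.4% of the cycling cells. Dendritic cells reached 17.3% (17 of 98, 10.4 to 26.3%), and plasma cells 6 of 23. Single cells met the rule among 52 endothelial cells, 21 NK cells, and 206 smooth muscle cells, and 0 of 176 neutrophils did, which allows up to 1.70%. Thinned to 2000 UMIs, fibroblasts were at 2.50% (13 of 520) in early and 0.0476% (1 of 2100) in late AVFs, and mono/macros at 1.40 and 1.77%. Mono/macros of contralateral veins were then at 0.955% (4 of 419, 0.261 to 2.43%). That interval overlaps those of mono/macros in early (0.922 to 2.02%) and late AVFs (1.17 to 2.56%). At that depth late dendritic cells were at 4.12% (4 of 97), early endothelial cells at 3.70% (2 of 54), and T cells at 3.81, 5.38, and 3.63% in contralateral veins, early, and late AVFs, so late T cells were not above those of contralateral veins.

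**Figure D1:**
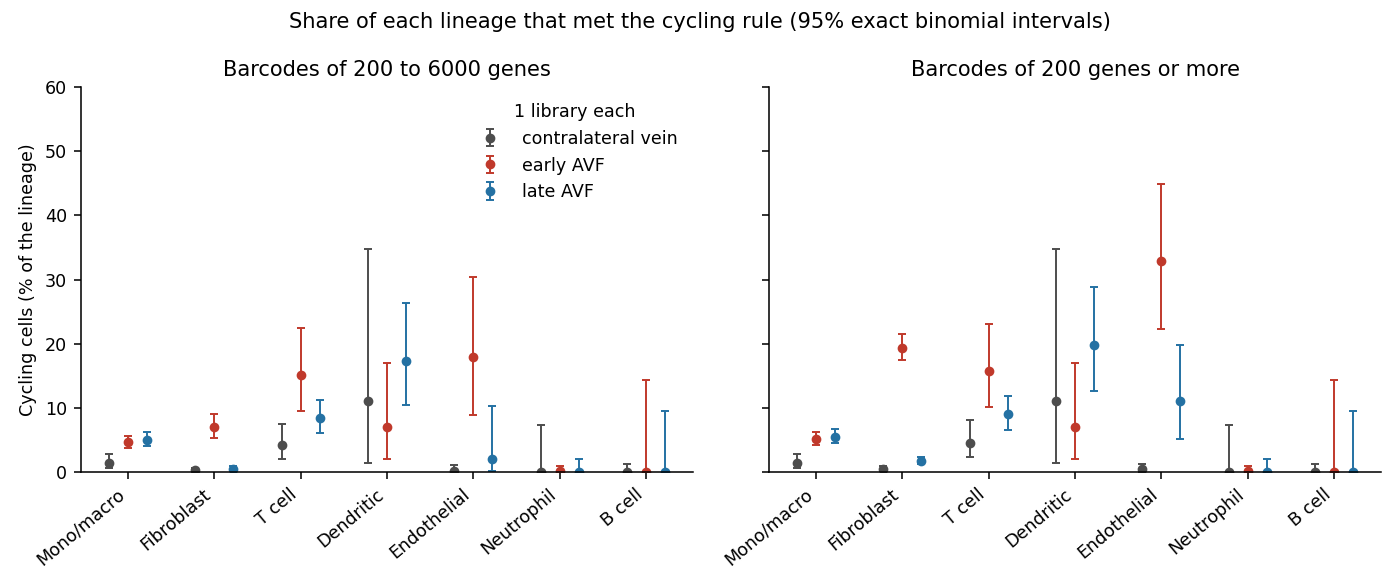
Share of each lineage that met the cycling rule (%, points) in contralateral veins, early AVFs, and late AVFs, 1 library each, with 95% exact binomial intervals as bars; on the left barcodes of 200 to 6000 genes, on the right barcodes without the upper limit. Fibroblasts are at 6.98% in early and 0.473% in late AVFs on the left and at 19.4% and 1.70% on the right, while mono/macros lie near 5% in both AVF libraries.

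The upper limit of 6000 genes left out many barcodes that met the rule on UMIs. Above it lay 287 such barcodes in early AVFs, 34.2% of the 838 barcodes there (31.0 to 37.6%), 74 of 588 in late AVFs (12.6%, 10.0 to 15.5%), and 5 of 25 in contralateral veins. In early AVFs 57.6% of all cycling barcodes lay above the limit, against 15.0% of all barcodes, and in late AVFs 30.2% against 9.17%. Without the limit, cycling barcodes were 0.741% in contralateral veins, 8.91% in early AVFs, and 3.82% in late AVFs. The second rule was met by 213 of the 287 and 53 of the 74.

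The limit bore mostly on fibroblasts. Of the cycling fibroblasts of early AVFs, 232 of 288 (80.6%) lay above it, against 686 of all 1488 fibroblasts (46.1%), while for mono/macros it was 12 of 106 cycling (11.3%) and 23 of 2076 in all. In late AVFs 36 of 47 cycling fibroblasts and 9 of 89 cycling mono/macros lay above it. Without the limit, fibroblasts were the largest class of cycling cells in early AVFs, at 57.8%, and mono/macros followed at 21.3%; 19.4% of early fibroblasts met the rule (288 of 1488, 17.4 to 21.5%), against 1.70% in late AVFs (47 of 2757). Endothelial cells were then at 24 of 73 in early and 9 of 82 in late AVFs, and skeletal myogenic cells at 10 of 15 in early AVFs. Of the 7 myogenic cells above the limit, 7 had *Myf5*, 6 *Cdh15*, and 5 each *Pax7* and *Myod1*.

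**Figure D2:**
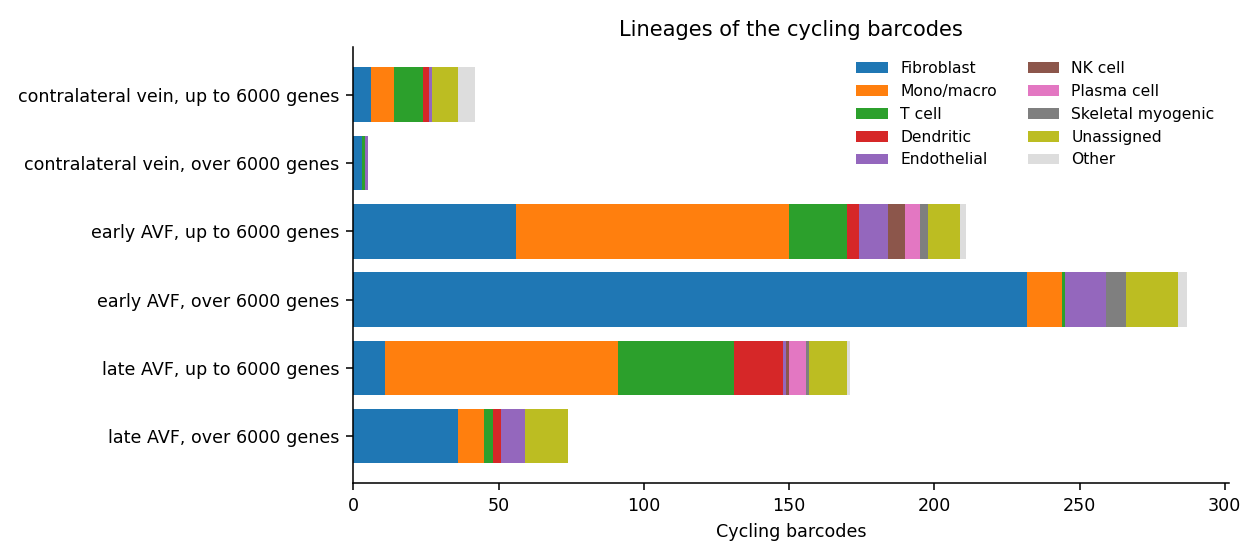
Number of cycling barcodes (horizontal axis) of each lineage (colors) in each library, up to and over 6000 genes. Over the limit, fibroblasts are 232 of 287 in early AVFs and 36 of 74 in late AVFs; up to the limit, mono/macros are 94 of 211 and 80 of 171.

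A barcode that holds 2 cells also has many genes. The doublet score of Scrublet was 0.25 or more in 2 of the 287 early cycling barcodes above the limit (0.697%), against 1.55% of all early barcodes there, and in 4 of 74 late ones (5.41%, against 5.95%). Up to the limit it was 4 of 424 (0.943%), against 1.05% of all. Scrublet's own calls were 0, 2, and 179 barcodes in the 3 libraries without the upper limit, so it had not worked in contralateral veins and early AVFs.

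The share of fibroblasts that cycled climbed with the number of genes above the limit. In early AVFs it was 12.4% of 283 barcodes with 5000 to 6000 genes, 18.7% of 411 over 6000 and under 7000, 47.7% of 193 from 7000 to under 8000, and 76.8% of 82 with 8000 or more. In late AVFs the same bins gave 0.552, 5.41, 14.9, and 50% of 725, 333, 87, and 10 barcodes. Mono/macros in bins that start at 3000, 4000, and 5000 genes cycled in 3.37, 12.2, and 28.2% of barcodes in early and in 4.63, 16.3, and 34.9% in late AVFs. In these 3 bins the shares of mono/macros were lower in early than in late AVFs with overlapping intervals, and in the 3 bins below 3000 genes they were higher in early AVFs (1.48, 1.30, and 1.34% against 0, 0.532, and 0.873%). Those of fibroblasts were higher in early AVFs in each of the 4 bins, the last of which holds only 10 late barcodes. With all barcodes thinned to 10000 UMIs and no gene limit, fibroblasts were at 13.6% in early (147 of 1083) and 0.975% in late AVFs (23 of 2360).

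**Figure D3:**
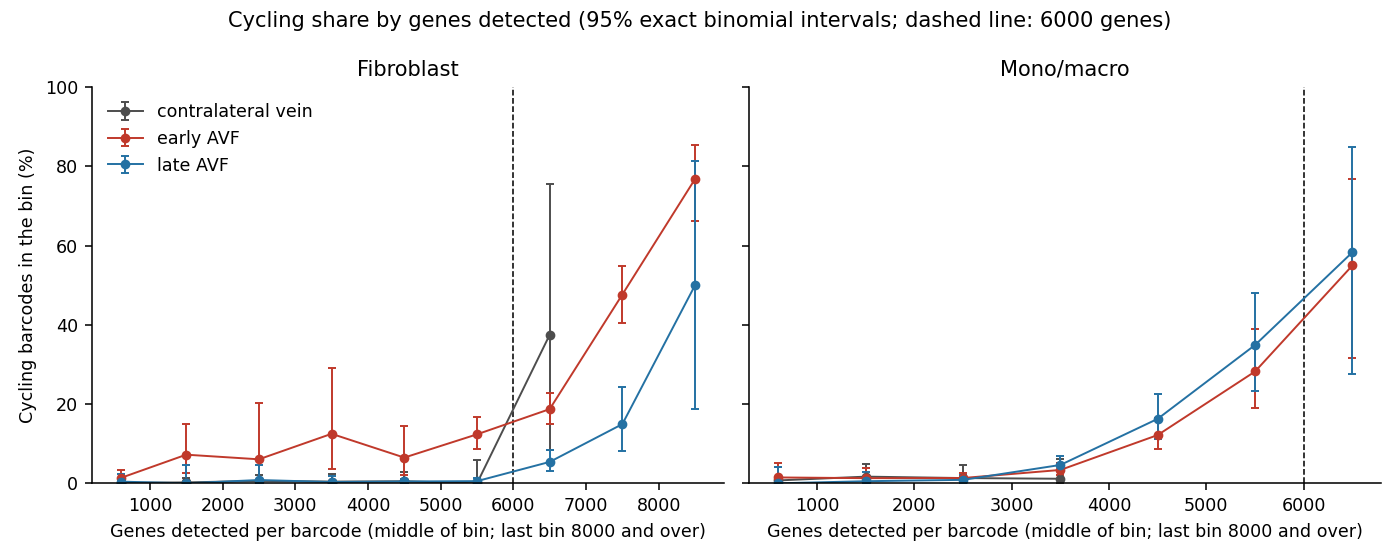
Share of fibroblasts (left) and mono/macros (right) that met the cycling rule (%, vertical axis) by genes detected per barcode (horizontal axis, middle of each bin with 8 or more barcodes), by library, with 95% exact binomial intervals; the dashed line is the limit of 6000 genes. Early fibroblasts go from 12.4% just under the limit to 76.8% at 8000 genes or more, and late ones from 0.552% to 50%.

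Cycling cells were then set beside the other cells of the same lineage and library, for lineages with at least 20 cycling cells. UMIs were summed over cells, and a gene was counted as higher or lower at 2-fold or more. This contrast is the one that chose the cells, so it is given without a test. Of the 80 genes of the 9 cell cycle lists, which leave out the 5 rule genes, 78 were at least 2-fold higher in cycling mono/macros of early AVFs and 77 in those of late AVFs, where 8.18% and 9.47% of all genes considered were. It was 67 in fibroblasts of early AVFs (5.26% of all genes), 78 in those above the gene limit in both early (6.02%) and late AVFs (8.11%), and 51 and 59 in T cells of early and late AVFs (13.0% and 11.5%). In T cells fewer of the genes had enough UMIs to be considered. Other cells at least as deep as the median cycling cell are called of like depth here and below. Against other early T cells of like depth, which were fewer than 20, the count was 26.

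The spindle, mitotic entry, and cytokinesis lists had higher ratios than the lists of replication, G1/S, anaphase, and condensin genes in all 7 comparisons. Summed over the list, spindle motor and assembly genes, such as *Kif11*, which pushes the spindle poles apart, were 44.6-fold higher in cycling mono/macros of early AVFs (95% exact interval 39.2 to 51.0), 39.2-fold in fibroblasts up to the gene limit (32.2 to 48.2), 60.5-fold in those above it, and 40.4-fold in T cells. *Kif11* itself was at 49.7 against 0.787 CPM in early mono/macros and 42.7 against 0.922 CPM in early fibroblasts. Mitotic entry kinases and cyclins, which include *Cdk1*, the kinase that starts mitosis, were 27.7, 20.5, 29.8, and 20.8-fold higher in the same 4 comparisons. Cytokinesis genes were 25.2, 19.3, 21.4, and 8.85-fold higher. The kinetochore list was 31.5-fold higher in early fibroblasts and 10.2-fold in early mono/macros; its summed level in cycling cells was 764 and 674 CPM, and in other cells 24.2 and 66.1 CPM. In T cells it was 6.39-fold higher in early and 3.08-fold in late AVFs. The anaphase list was 3.39, 3.69, 3.35, and 3.65-fold higher in the 4 early comparisons.

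The replication lists had their lowest ratios in the early fibroblasts up to the gene limit. Genes of origin licensing and firing, among them *Mcm3* of the replicative helicase, were 5.72-fold higher in mono/macros (5.35 to 6.12), 4.74-fold in T cells, and 4.77-fold in fibroblasts above the limit (4.54 to 5.02), but 1.87-fold in fibroblasts up to it (1.59 to 2.20). Genes of DNA synthesis and nucleotide supply, such as *Pcna*, the sliding clamp, and *Rrm2*, a subunit of ribonucleotide reductase, were 5.83, 6.01, 5.25, and 2.29-fold higher in the same order. *Rrm2* was at 68.6 against 1.01 CPM in mono/macros, at 59.3 against 3.57 CPM in fibroblasts above the limit, and at 17.5 against 5.36 CPM in fibroblasts up to it. In late AVFs the licensing list was 4.40-fold higher in mono/macros, 5.06-fold in T cells, and 6.07-fold in fibroblasts above the limit.

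Each cell was also described by the UMIs of 46 mitosis genes and 20 replication genes, sets of unequal size. More mitosis than replication UMIs were held by 28 of 42 cycling cells in contralateral veins, 132 of 211 (62.6%) in early AVFs, and 109 of 171 (63.7%) in late AVFs. Among early cells it was 54 of 94 mono/macros, 41 of 56 fibroblasts, 13 of 20 T cells, and 4 of 10 endothelial cells. In cells outside the rule the mitosis set summed to 213 against 219 CPM of the replication set in contralateral veins. It was 265 against 228 CPM in early and 212 against 188 CPM in late AVFs, so these counts place no cell in a phase. The rule reads genes that peak late in the cycle, so cells in early S phase are less likely to be among the 424.

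**Figure D4:**
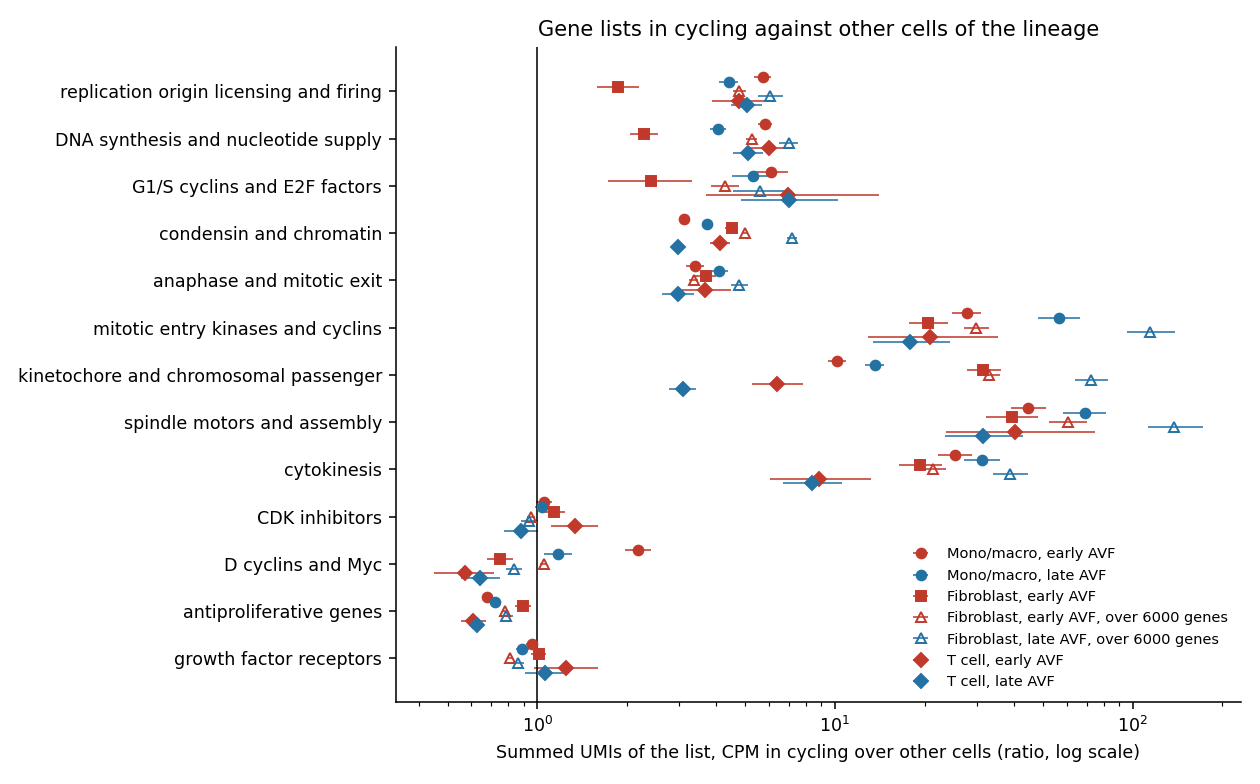
Ratio of the summed CPM of each gene list in cycling over other cells of the same lineage and library (log axis) with 95% exact counting intervals; circles are mono/macros, squares and triangles fibroblasts up to and over 6000 genes, and diamonds T cells, in early (red) and late (blue) AVFs. Spindle, mitotic entry, and cytokinesis lists lie to the right of the replication lists in every comparison, and replication lists of early fibroblasts up to the limit (squares) at 1.87 and 2.29.

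Genes that hold the cycle back and growth genes moved less than the cell cycle lists when summed over their lists. Among 7 CDK inhibitors, *Cdkn2c*, which binds CDK4 and CDK6, was at 34.5 against 4.98 CPM (6.93-fold) in mono/macros of early and 12.9-fold higher in those of late AVFs, and 3.02 and 5.63-fold higher in fibroblasts above the gene limit. *Cdkn2d*, a protein of the same family, was 1.85 and 3.36-fold higher in mono/macros. *Cdkn1a*, the p53 target p21, was at 388 against 404 CPM in mono/macros of early AVFs. *Ccnd1*, a D cyclin of G1, was 2.74-fold higher in mono/macros of early AVFs and 3.96-fold in early fibroblasts above the limit, but 0.69-fold in those up to it. The antiproliferative list (*Btg1*, *Btg2*, *Tob1*, *Ccng2*, *Rb1*, *Rbl2*) was 0.68-fold in early and 0.72-fold in late mono/macros when summed, but its median gene was at 0.93 and 1.02-fold, with 1 of 6 and 0 of 6 lower. *Csf1r*, the receptor for the macrophage growth factor, was at 537 against 535 CPM and at 459 against 504 CPM. Against other mono/macros of like depth, the CDK inhibitors summed to 1.41-fold in early and 1.11-fold in late AVFs. Their median gene was there at 2.29 and 3.17-fold, with 3 of 5 and 2 of 4 genes considered higher and 0 lower. The D cyclins and *Myc* summed to 2.45 and 0.96-fold at like depth.

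The 10 leading genes outside the rule in mono/macros were *Hist1h3c*, *Pclaf*, *Ska1*, *Nusap1*, *Pbk*, *Kif14*, *Kif18b*, *Hist1h2ab*, *Neil3*, and *Ccna2*, of which 3 (*Nusap1*, *Kif18b*, *Ccna2*) are in the cell cycle lists. *Pclaf*, which binds PCNA, was 113-fold higher in early and 108-fold in late AVFs. In early fibroblasts they were *Hmmr*, *Cenpf*, *Cenpe*, *Knl1*, *Mmp13*, *Ckap2l*, *Cdc20*, *Ccnb1*, *Kif11*, and *Hist1h2ae*, of which 8 are in the lists, all but *Mmp13* and *Hist1h2ae*. *Mmp13*, a collagenase, is a matrix enzyme rather than a division gene, with 80 UMIs summed over 56 cycling and 11 over 746 other fibroblasts, 60.8-fold higher. How many of these fibroblasts held its UMIs was not counted, and its level above the gene limit was not examined.

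Subtype markers differed between cycling and other cells. Of 6 monocyte genes, 4 were at least 2-fold lower in cycling mono/macros of early and 4 in those of late AVFs, where 6.79% and 6.73% of all genes were lower. *Plac8* was at 27.6 against 360 CPM and *Ly6c2*, the Ly6C antigen of inflammatory monocytes, at 3.22 against 52.7 CPM in early AVFs. Against the 308 and 159 other mono/macros at least as deep as the median cycling cell, only 1 of 6 and 0 of 4 genes considered were lower, and the summed ratio went from 0.33 to 1.42 in early and from 0.51 to 0.97 in late AVFs, so this difference moved with depth. The median gene stayed below 1, at 0.69 in early and 0.86 in late AVFs, with 1 and 0 genes higher. The inflammatory macrophage list was 0.75-fold in early and 0.70-fold in late AVFs, and 0.67 and 0.53-fold against cells of like depth. In it *Thbs1*, thrombospondin 1, was at 630 against 1886 CPM in early and 389 against 834 CPM in late AVFs. The resident macrophage list was 0.98 and 0.74-fold, with 0 of 7 and 2 of 8 genes lower. Against cells of like depth it was 0.99 and 1.16-fold (1.11 to 1.22 in late AVFs) with 0 of 7 lower in both, so the direction of the sum in late AVFs turned with depth. The median gene of the resident list was at 0.79 in early and 0.92 in late AVFs there, so it did not turn.

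In early fibroblasts 5 of 6 resting fibroblast genes and 4 of 5 late fibroblast genes were at least 2-fold lower in the cycling cells, where 9.78% of all genes were. *Thbs4*, of the late list, was at 7.71 against 100 CPM, and *Cilp* at 25.9 against 150 CPM. *Pi16*, of the adventitial list, was at 35.0 against 260 CPM. Only 2 of the 6 genes of that list were lower, with a median ratio of 0.64. Against the 222 other fibroblasts of like depth, the same numbers of resting and late genes were lower (5 of 6 and 4 of 5), with median ratios of 0.31 and 0.20. Above the gene limit it was 4 of 6 and 4 of 5, with medians of 0.36 and 0.40; there 4.57% of all genes were lower. Against the 73 other fibroblasts of like depth above the limit, 1 of 4 resting and 4 of 5 late fibroblast genes considered were lower, with medians of 0.56 and 0.43. Of the activated fibroblast genes, *Acta2*, smooth muscle actin, was at 834 against 595 CPM up to the limit and at 1414 against 917 CPM above it, while *Postn*, periostin, was at 2239 against 3577 CPM. Of the 6 genes of that list, 0 were at least 2-fold higher on either side of the limit. Up to the limit 1 was lower, and above it 0 were. Summed, the list was 0.78-fold up to the limit and 0.88-fold above it. In late fibroblasts above the limit 2 of 6 resting and 1 of 5 late fibroblast genes were lower, where 7.72% of all genes were. Their median ratios were 0.61 and 0.69. Against the 139 other late fibroblasts of like depth there, 1 of 6 and 1 of 5 were lower, with medians of 0.80 and 0.68.

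Markers of another lineage were looked at in the cycling cells. The 10 mono/macro markers summed to 367 against 341 CPM in early fibroblasts, 334 against 389 CPM above the limit, and 187 against 471 CPM in late fibroblasts above it. In those late fibroblasts the 10 T cell markers were at 56.3 against 22.4 CPM (2.51-fold, 2.04 to 3.06), with 9 of 10 higher, and the 6 NK cell markers at 9.61 against 1.98 CPM (4.86-fold, 2.74 to 8.35); their part in the results of those cells was not tested. *Spp1*, a macrophage gene that fibroblasts also hold, was at 2105 against 411 CPM in early fibroblasts up to the limit and 1332 against 1706 CPM above it. In late T cells the 10 mono/macro markers were at 1020 against 361 CPM, with 5 of 10 higher, and their part in the results of those T cells was not tested. The monocyte list went the other way there: 5 of the 5 genes considered were lower in cycling T cells, with *Plac8* at 13.3 against 248 CPM, where 8.96% of all genes were lower. In early T cells 0 of 4 were lower, where 9.17% of all genes were.

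Bulk vessels are samples that the cell rule did not use. In early AVFs 19 of the 84 tested cell cycle genes were higher than in contralateral veins and 0 lower (edgeR's quasi-likelihood test, adjusted *p* under 0.01 and log2 fold change of at least 1), against 6.17% and 6.45% of all 12673 genes. It was 6 higher and 1 lower in mid AVFs (2.74% and 3.31%), and 5 higher and 1 lower in late AVFs (2.49% and 2.85%). The median log2 fold change of the 84 genes was 1.83, 1.23, and 0.77, against −0.01, −0.10, and −0.09 over all genes. In bulk, more cells of a type and more RNA per cell cannot be told apart. Without contralateral vein 27, the count of higher genes was 13 in mid and 11 in late AVFs, and without vein 632 it was 10 and 8; without late AVF 19, 23, or 24 it was 3 in late AVFs.

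*Birc5* (ENSMUSG00000017716) was at 0.0392 to 8.11 CPM in the 7 contralateral veins (median 0.725) and at 35.0 to 208 CPM in the 8 early AVFs (median 75.6). Mid AVFs 9, 12, 13, 14, and 15 were at 31.9, 25.4, 18.1, 27.8, and 27.9 CPM, and late AVFs 16, 17, 19, 23, and 24 at 12.5, 11.04, 19.4, 16.3, and 18.8 CPM. No AVF of any time overlapped the contralateral veins, and the early values lay above those of mid and late AVFs. Against contralateral veins it was higher by 5.86 on the log2 scale (SE 0.821, adjusted *p* = 7.08e-06), 3.99 (SE 0.782, 0.00092), and 3.24 (SE 0.762, 0.00552). The late call was lost without contralateral vein 34 or 35 or late AVF 19, 23, or 24 (adjusted *p* of 0.0108 to 0.0137).

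*Ube2c* (ENSMUSG00000001403) was at 0.157 to 49.97 CPM in contralateral veins (median 10.2) and at 43.7 to 212.5 CPM in early AVFs (median 99.6). It was the other rule gene to pass in early AVFs (a log2 difference of 3.08, SE 0.751, adjusted *p* = 0.00353), and the ranges overlapped through contralateral vein 34. In mid and late AVFs it was at 25.9 to 40.0 and 18.3 to 24.4 CPM (1.22 and 0.66, adjusted *p* = 0.335 and 0.653).

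*Mki67* (ENSMUSG00000031004) was at 0 to 30.4 CPM in contralateral veins (median 0.544), 30.7 to 80.2 CPM in early AVFs (median 63.6), 46.1 to 59.6 CPM in mid AVFs, and 32.8 to 48.4 CPM in late AVFs, so no AVF overlapped the contralateral veins. Its log2 differences of 3.06, 2.90, and 2.40 in early, mid, and late AVFs missed the adjusted *p* of 0.01, at 0.0168, 0.0483, and 0.106. Contralateral vein 632 set the upper end, and without it the early and mid log2 fold changes were 4.22 and 4.06 and passed (adjusted *p* = 0.00173 and 0.00535). By DESeq2 both passed with all libraries.

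*Top2a* (ENSMUSG00000020914) and *Prc1* (ENSMUSG00000038943) did not pass at any time. *Top2a* was at 0.345 to 83.3 CPM in contralateral veins and 57.8 to 153 CPM in early AVFs, where its adjusted *p* was 0.042 (log2 fold change 1.87, SE 0.662). *Prc1* was at 0 to 23.8 CPM and 11.2 to 55.9 CPM (2.39, SE 0.902, adjusted *p* = 0.0566). The contralateral veins did not rank alike over the rule genes: vein 27 was highest in *Top2a*, *Prc1*, and *Birc5*, vein 34 in *Ube2c*, and vein 632 in *Mki67*.

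**Figure D5:**
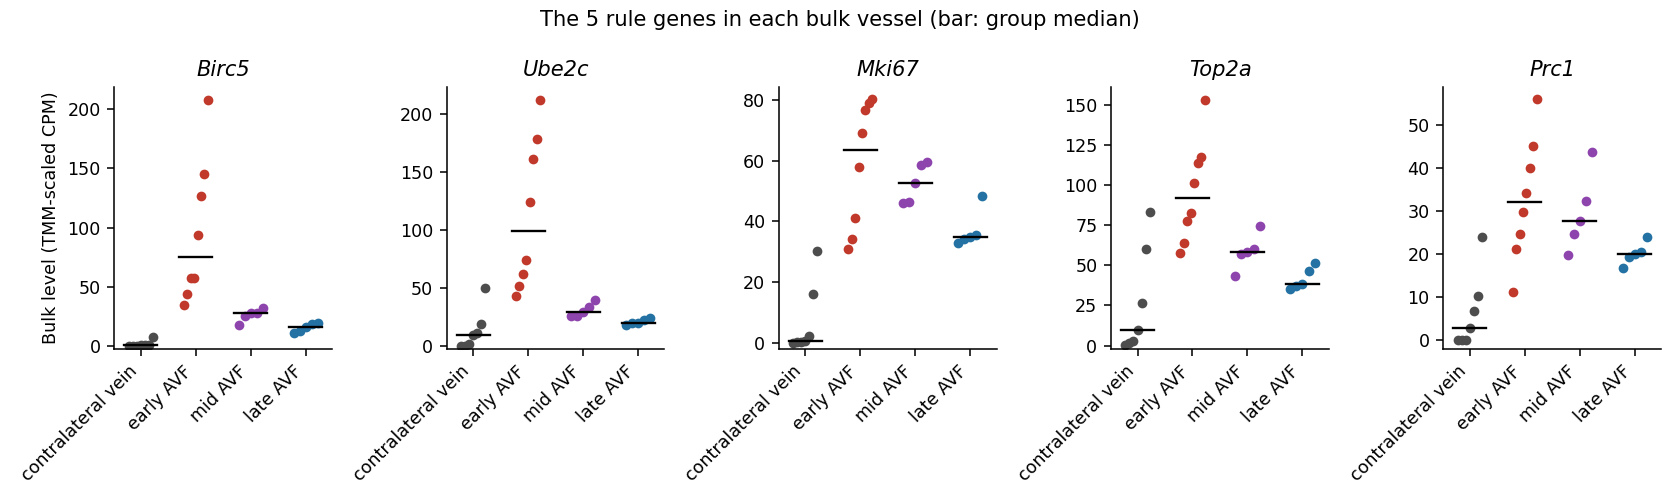
Level of the 5 rule genes in each bulk vessel (TMM-scaled CPM, vertical axis; each point 1 vessel, the bar the group median) in 7 contralateral veins, 8 early, 5 mid, and 5 late AVFs. For *Birc5* and *Mki67* every AVF lies above every contralateral vein, and for the other 3 genes 1 or more veins reach into the AVF range.

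By role, mitotic entry kinases and cyclins had 5 of 10 genes higher in early AVFs, among them *Cdk1* (log2 fold change 4.61, SE 0.914, adjusted *p* = 0.000532) and *Foxm1* (4.71, SE 1.02, 0.00127), the transcription factor of late cell cycle genes. The kinetochore list had 3 of 12, cytokinesis 2 of 8, DNA synthesis 2 of 9, condensin and chromatin 2 of 8, and spindle motors 1 of 10, *Kif11* (5.98, SE 0.988, 6.57e-05). Origin licensing and the G1/S list had 1 each, and the anaphase list 0 of 6. *Kif11* stayed past the threshold at every time (5.64 in mid and 5.02 in late AVFs), as did *Foxm1*, *E2f7*, a repressor of the E2F family, and *Kif20a*, a motor of the midzone. *Pttg1*, which encodes securin, was the lower gene in mid and late AVFs (−1.82, SE 0.409, adjusted *p* = 0.00346; −1.75, SE 0.408, 0.00513). Of the CDK inhibitors, *Cdkn1a* was higher at all 3 times (2.19, 1.96, and 1.72; adjusted *p* = 2.44e-05, 0.000489, and 0.00204), and *Cdkn2c* changed by −0.85 in early AVFs (adjusted *p* = 0.39).

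Late AVFs were also set against early AVFs directly. Of the 84 genes, 2 were lower, *H2afz* (a histone variant; log2 fold change −1.79, adjusted *p* = 0.00478) and *Pcna* (−1.36, 0.00692), and 0 higher, against 2.28% and 0.726% of all genes. The median was −1.21, against 0.01 over all genes. *Birc5* changed by −2.62 (adjusted *p* = 0.0444) and *Mki67* by −0.66 (0.911). The count of lower genes was 1 without early AVF 2 or 7 and 0 without early AVF 3, 5, or 6 or any of the 5 late AVFs.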

How the data were processed

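The authors deposited whole-number UMI counts per gene and barcode for 3 single-cell libraries, made with Cell Ranger 6.0.2 per the file headers, and raw read counts per gene for 25 bulk libraries. The submitters' processing notes list Cell Ranger, STAR, mm10, and GRCm38. Bulk totals were 20254173 to 67457501 counts per library.

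Each barcode was given the lineage of the marker list with the highest score, if at least 3 of its markers were detected and the score led the next by 1.5 times. CPM are UMIs summed over cells per 1000000 UMIs; genes with at least 20 UMIs over cycling and other cells were considered. Single-cell intervals are 95% exact binomial or Poisson intervals and cover counting error only. Python 3.11.15, scipy 1.17.1, and Scanpy 1.11.5 were used, with leidenalg 0.10.2 for clusters (resolution 0.5). Doublets were kept, with Scrublet calls left out as an alternative. Bulk genes with a mean normalized count of at least 100 were tested with edgeR 4.0.16 (R 4.3.3): TMM, quasi-likelihood, Benjamini-Hochberg over all 12673 genes, 4 groups fitted together; DESeq2 1.42.0 was an alternative. Labels number the vessels but do not say whether they came from separate animals; if some did not, p-values measure only the spread between these libraries. The code was tested on simulated data.

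The members and gene lists were chosen with earlier results of these data known. Named genes were the rule genes, members of the fixed lists, lineage and subtype markers, and the 10 genes with the highest ratio in mono/macros and in fibroblasts; list examples were otherwise picked after values had been seen. The lineage score, the thinning to 10000 UMIs, the doublet score of 0.25, the lineages and levels above the gene limit, and the contrast of late against early AVFs were also chosen after the data had been seen.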

Additional observations from a re-analysis of the deposited data

Results flagged for a closer look

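In bulk, 20 groups of a rule gene were examined for a vessel far from the others, and 3 were found, where chance gives about 1 in 20. *Mki67* in late AVF 24 was 48.4 CPM, against 32.8 to 35.5 CPM in the other late AVFs. *Birc5* in contralateral vein 27 was 8.11 CPM, the next highest contralateral vein being at 1.06 CPM. *Ube2c* in contralateral vein 34 was 49.97 CPM, the next highest being at 19.5 CPM.

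Barcodes outside the limits of the rule also held UMIs of the 5 genes. Above 6000 genes, 287 of 838 barcodes of early AVFs (34.2%) and 74 of 588 of late AVFs (12.6%) had 3 or more UMIs of at least 2 rule genes. In contralateral veins it was 5 of only 25 barcodes (20%, 6.83 to 40.7%), an interval that overlaps those of both AVF libraries. Over 10% mitochondrial UMIs, 49 barcodes of early AVFs met the same rule on UMIs (3.598% of 1362 such barcodes), against 13 of 2647 in contralateral veins and 16 of 1381 in late AVFs.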

How the results depend on the processing

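Shares of cycling cells moved with the rule, the depth, and the gene limit, while early AVFs stayed above late AVFs and late AVFs above contralateral veins in each of these settings. With 2 UMIs in place of 3, 6.29% of early and 4.00% of late barcodes cycled (mono/macros 6.53 and 6.68%, fibroblasts 10.7 and 1.38%); with 5 UMIs, 2.99 and 2.15% did (early mono/macros 2.92%, fibroblasts 4.74 and 0.172%, the latter 3.2% of late cycling cells). Under the second rule the shares were 0.443, 2.61, and 1.96% (mono/macros 2.73 and 3.44%, early fibroblasts 4.11%). Thinned to 2000 UMIs, early and late barcodes gave 1.52 and 1.06% (mono/macros 1.40 and 1.77%, fibroblasts 2.50 and 0.0476%). Thinned to 10000 UMIs, contralateral veins gave 1.96%, early mono/macros 3.48%, and late fibroblasts 0.155%; without the gene limit as well, the 3 libraries gave 2.41, 8.76, and 3.41% and fibroblasts 13.6 and 0.975%. Without the gene limit alone, early and late barcodes gave 8.91 and 3.82% and fibroblasts 19.4 and 1.70%; mono/macros were 21.3 and 36.3% and fibroblasts 57.8 and 19.2% of the cycling cells, so the leading lineage of early AVFs changed. In early T cells, 26 cell cycle genes were higher against other cells of like depth, which were fewer than 20. Leaving out barcodes with a doublet score of 0.25 or more, allowing 20% mitochondrial UMIs, or naming cells by cluster moved no share beyond its interval; Scrublet's own calls left out 0, 1, and 134 barcodes, so they bear on late AVFs alone.

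In bulk, DESeq2 called 33 genes higher in early, 13 in mid AVFs, and 4 lower in late than in early AVFs; the last count was 1 with edgeR's filterByExpr, with no filter, or with sex as a covariate. With 1 library left out, the counts were 16 to 24 in early, 4 to 13 in mid, and 3 to 11 in late AVFs, and 0 to 2 for late against early AVFs. Vessel to vessel spread in contralateral veins limits these tests; the causes of the changes were not tested. No paired analysis was possible because the groups share no vessel numbers and each single-cell group has 1 library.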
